A study of Drosophila melanogaster with 6 samples.

Results

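Peptidoglycan recognition proteins (PGRPs) are the fly's sensors and scavengers of bacterial cell wall. The files of this study list 13 genes of the family, and 9 of them were examined here among 17714 listed genes: PGRP-LA, PGRP-LB, PGRP-LC, PGRP-LD, PGRP-LE, PGRP-LF, PGRP-SA, PGRP-SC2 and PGRP-SD. They were taken by their symbol, and the family was chosen with earlier results of these data known. The libraries hold poly(A) RNA of Kc cells, a line of embryonic origin that resembles fly blood cells. There were 3 libraries labelled as knockout (KO) of CG14906, the Mettl4 gene that the series' title links to m6A on the spliceosomal U2 snRNA, and 3 wild-type (WT) libraries. The KO libraries' titles begin with OE although their source and genotype fields say ko, and they are called KO here. No label mentions a microbe, a clone or an immune treatment, and separate cultures are not stated. The p-values therefore reflect the variation among these 6 libraries alone, and part of it may be technical. CG14906 RNA stood at 19.7 ± 1.02 CPM (counts scaled to library size, as described under processing) in KO and 18.5 ± 1.91 CPM in WT (SD, n = 3 each), so the RNA level does not check the label (log2 fold change 0.10, edgeR adjusted p = 0.435, and -0.28, adjusted p = 0.0503, with the regional offset explained further on).

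All PGRPs carry a domain related to the amidases of bacteriophages. In some of them, such as PGRP-LB and PGRP-SC2, the domain still cuts the peptide off the sugar chain of peptidoglycan, which removes its power to stimulate immunity. In others the cutting activity is lost and the domain binds peptidoglycan as a receptor. PGRP-LC and PGRP-LE switch on the Imd pathway, whose output is the NF-kappaB factor Relish, while PGRP-SA acts in the blood upstream of the Toll pathway. Blood cells and the blood-cell-like Kc and S2 lines are classical material for studying both pathways.

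Expected counts summed to between 11301501 and 14312536 per KO library and between 9963557 and 18906951 per WT library. Replicate 1 of each group stood apart: its counts differed from those of its 2 sister libraries by a chi-square per gene of 28.0 and 28.6 in KO and of 18.5 and 26.3 in WT, against 2.94 between KO replicates 2 and 3 and 1.65 between WT replicates 2 and 3. Nuclear rRNA took 4.11% of the counts in KO replicate 1, against 1.83% and 0.171% in KO replicates 2 and 3. In WT replicate 1 it took 3.98%, against 0.218% and 0.219% in WT replicates 2 and 3. Values without both number-1 libraries are given for the tested PGRP genes and for Rel, Hml and yin. Call counts without them are given for the Imd lists and the transporter and lysozyme list.

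The family's RNA was dominated by 1 receptor in both groups, and the clearest difference between the groups was in an amidase. PGRP-LB was 13.7-fold higher in KO (95% interval 8.19 to 22.9). The receptor genes PGRP-LE and PGRP-SA were lower in KO, at 0.830 (0.763 to 0.903) and 0.711 (0.597 to 0.847) of their WT level. Of the 9 genes, 5 passed the filter on low counts, and all 5 lay above its level in all 6 libraries. Among these 5, 1 was called higher and 2 were called lower (edgeR quasi-likelihood F-test, threshold of 0.05 on p adjusted by Benjamini-Hochberg over 8405 genes). Of everything tested, 27.7% was called higher, 26.5% lower and 54.1% in either direction, so 3 called genes of 5 is near the background. The CPM of the groups did not overlap for 3 of these 5 genes, against 63.3% of all tested genes. The size of the PGRP-LB change was less common, as 1.86% of tested genes had a larger absolute log2 fold change.

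**Figure D1:**
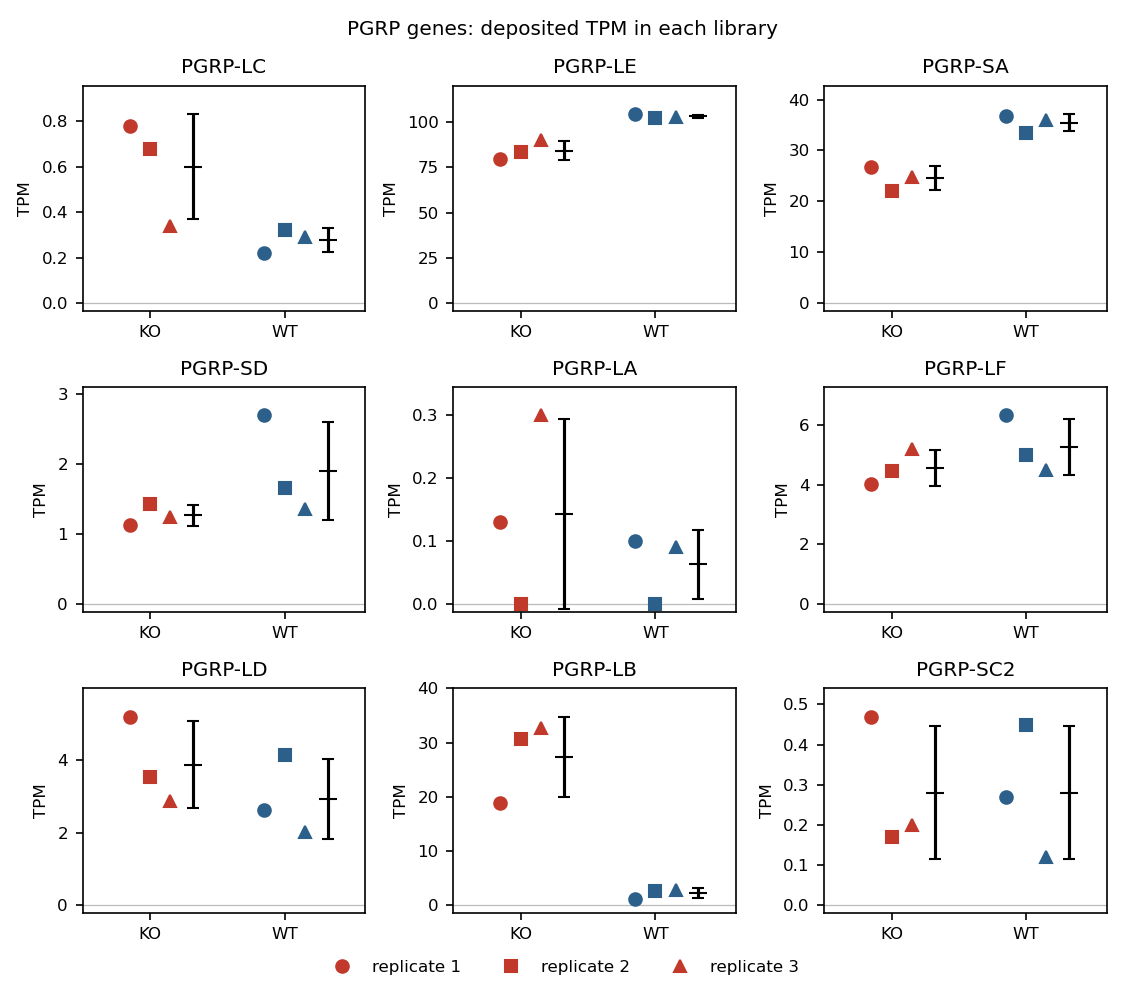
Deposited TPM (length-corrected abundance, vertical axis starting just below 0, own scale per gene) of the 9 PGRP genes in the KO and WT libraries. Symbols mark replicates and black bars the mean ± SD of 3 libraries. PGRP-LB in KO (18.8 to 32.6 TPM) lies far above WT (1.19 to 2.89 TPM), while PGRP-LE and PGRP-SA lie lower in KO with no overlap.

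PGRP-LE, which senses peptidoglycan of the diaminopimelic acid type inside cells and can also be released from them, was the most abundant family member. Its expected counts were 1027, 979 and 910 in KO replicates 1 to 3 and 1539, 907 and 1732 in WT replicates 1 to 3. On the scale of normalised CPM it held 73.4, 75.7 and 78.9 in KO, against 93.4, 90.4 and 90.7 in WT. Every KO library was below every WT library. The log2 fold change was -0.27 (SE 0.05, edgeR adjusted p = 0.00395), and -0.24 without both number-1 libraries. PGRP-LE ranked between 1723 and 1854 of all genes by TPM in the KO libraries and between 1449 and 1510 in the WT libraries. The gene lies on the minus strand of X at 15801153 to 15803880 in dm6 and shares no exon bases with another annotated gene.

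PGRP-SA is secreted into the blood and, with the glucan-binding protein family member GNBP1, starts the Toll cascade on lysine-type peptidoglycan. Its normalised level was 12.8, 10.3 and 11.6 CPM in KO replicates 1 to 3, against 17.2, 15.7 and 16.0 CPM in WT replicates 1 to 3. The groups did not overlap, and the log2 fold change was -0.49 (SE 0.11, edgeR adjusted p = 0.00694). Without both number-1 libraries it was -0.54. GNBP1 fell as well, to 29.6 ± 0.190 CPM in KO, against 46.8 ± 1.27 CPM in WT (log2 fold change -0.66, edgeR adjusted p = 0.000163). PGRP-SA lies on the plus strand of X at 11561643 to 11562779 and shares no exon bases with another gene.

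PGRP-LC, the transmembrane receptor through which blood cells and fat body are best known to answer Gram-negative bacteria, was close to undetected. It had 14, 11 and 4 counts in KO replicates 1 to 3 and 4, 4 and 7 counts in WT replicates 1 to 3. That is 0.780, 0.680 and 0.340 TPM in KO, against 0.220, 0.320 and 0.290 TPM in WT. The gene did not pass the count filter. The summed counts of 29 in KO and 15 in WT give a ratio of 2.29 (exact binomial 95% interval 1.19 to 4.60, counting error only). In a fit without the filter PGRP-LC was not called (log2 fold change 1.10, edgeR adjusted p = 0.178). In CPM, KO replicates 1 and 2 lay above the WT range and replicate 3 within it. For comparison, PGRP-LE averaged 84.2 TPM in KO and 103 TPM in WT.

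PGRP-LC sits in a cluster on the plus strand of 3L together with PGRP-LA (9334332 to 9338336) and PGRP-LF (9349609 to 9351489). PGRP-LC itself spans 9338810 to 9348336, with gaps of 473 bases to PGRP-LA and 1272 bases to PGRP-LF. PGRP-LA, a predicted membrane protein without known peptidoglycan binding, had 2, 0 and 3 counts in KO and 1, 0 and 1 counts in WT. These counts are too few for a comparison: the ratio of 2.96 has a counting interval of 0.485 to 31.1. PGRP-LF, a membrane protein that blocks signalling by PGRP-LC, was the best expressed gene of the cluster. It stood at 3.57, 3.87 and 4.42 CPM in KO replicates 1 to 3, against 5.46, 4.29 and 3.82 CPM in WT replicates 1 to 3. The groups overlapped and the gene was not called (log2 fold change -0.20, 95% interval -0.70 to 0.31, edgeR adjusted p = 0.468). Without both number-1 libraries the log2 fold change was 0.04 (adjusted p = 0.879). The inhibitor of PGRP-LC was thus counted more often than the receptor itself in every library.

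Some reads of PGRP-LF could not be assigned for certain. Of its 1355 exon bases, 602 lie opposite exons of UGP, a gene of the other strand, and the sources used here do not say whether counting used strand. UGP was the more abundant of the pair and was lower in KO, at 68.3 ± 1.71 CPM, against 186 ± 8.72 CPM in WT. The expected counts of PGRP-LF were not whole numbers, so some reads had been divided among features. What part of its value comes from such shared reads was not tested.

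PGRP-LD, a predicted membrane protein whose role is less well known, was still more entangled. It lies on the plus strand of 3L at 5780051 to 5784685, and 3683 of its 3957 exon bases belong to other genes as well, 3563 of them to Pmi on the same strand. It stood at 12.3, 8.43 and 6.33 CPM in KO replicates 1 to 3, against 5.04, 9.27 and 4.14 CPM in WT replicates 1 to 3. The groups overlapped, with the highest value in KO replicate 1, the library that stands apart. The log2 fold change of 0.59 was not called (95% interval -0.24 to 1.42, edgeR adjusted p = 0.195). It was 0.27 without both number-1 libraries, and without WT replicate 2 it was 0.97 with a call (adjusted p = 0.0453). Pmi, which takes most of the shared bases, was lower in KO, at 24.8 ± 2.69 CPM, against 36.0 ± 1.93 CPM in WT. The value of PGRP-LD is therefore uncertain.

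PGRP-SD, a secreted protein that helps the blood recognise bacteria, was at the edge of detection. It had 7, 8 and 6 counts in KO replicates 1 to 3, against 19, 7 and 11 counts in WT replicates 1 to 3, with WT replicate 1 the highest and the groups overlapping. The summed counts of 21 and 37 give a ratio of 0.673 (counting interval 0.374 to 1.18). Without the count filter the gene was not called (edgeR adjusted p = 0.405). It lies on the plus strand of 3L at 7651180 to 7651900, with 35 of 721 exon bases opposite CG7492.

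PGRP-LB, an amidase with secreted and intracellular forms that is known both as an Imd target gene and as a brake on the Imd response, differed most. Its expected counts were 212, 317 and 290 in KO replicates 1 to 3 and 15, 20 and 36 in WT replicates 1 to 3. Normalised, that is 15.2, 24.5 and 25.2 CPM in KO, against 0.910, 1.99 and 1.89 CPM in WT. The lowest KO library was above the highest WT library by a wide margin, and in each group replicate 1 was the lowest. The log2 fold change was 3.78 (SE 0.32, edgeR adjusted p = 0.000102), which was rank 120 among the rises of 8405 genes. Without both number-1 libraries it was 3.68, so the call does not rest on them. The expected counts were whole numbers in all libraries. PGRP-LB occupies 11452849 to 11460552 of 3R on the minus strand, and CG17230, which overlaps its span on the plus strand, shares no exon bases with it.

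**Figure D2:**
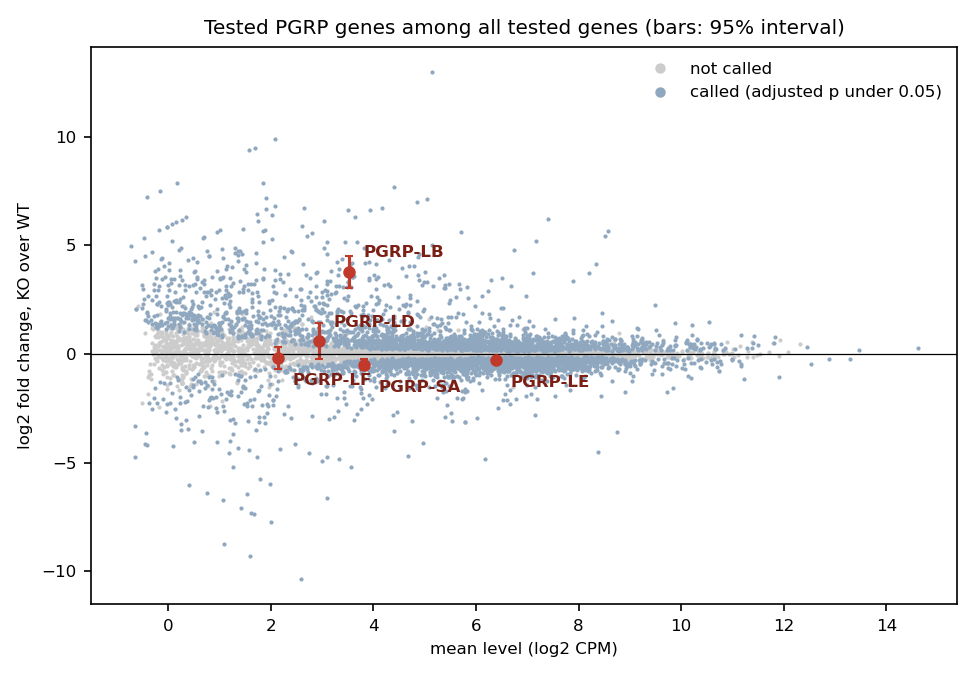
Each dot is 1 of 8405 tested genes, with its mean level (log2 CPM) on the horizontal axis and its log2 fold change, KO over WT, on the vertical axis. The 5 tested PGRP genes are in red with 95% intervals. PGRP-LB stands at 3.78, while the other 4 lie between -0.49 and 0.59.

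The second amidase, PGRP-SC2, a secreted enzyme best known from the gut, was nearly silent. It had 3, 1 and 1 counts in KO and 2, 2 and 1 counts in WT, which is 5 in each group (ratio 1.19, counting interval 0.273 to 5.15). The rise of PGRP-LB was not seen in PGRP-SC2, but at this depth the interval spans large differences in both directions. PGRP-SC2 lies on the plus strand of 2R at 8716950 to 8717695, as a single exon.

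The 4 remaining family genes of the files, all amidases or close relatives of amidases, were also near 0. PGRP-SB2 had 0 counts in every library and PGRP-SC1a had 2 counts, both in WT replicate 3. PGRP-SB1 had 4, 2 and 0 counts in KO and 0, 0 and 1 in WT. PGRP-SC1b had 8, 8 and 11 counts in KO, against 3, 0 and 0 in WT, so the groups did not overlap. Its ratio was 10.7 (counting interval 3.28 to 55.0). PGRP-SC1b was left out by the count filter and was called higher in the fit without it (log2 fold change 3.24, edgeR adjusted p = 0.0130) and by DESeq2 (adjusted p = 0.0247). In that unfiltered fit 15.5% of 13887 genes were called higher. All KO reads of PGRP-SC1b were assigned to its long transcript of 1649 bases rather than to the 626-base one. PGRP-SC1a is a near-identical copy, though the expected counts of both genes were whole numbers in all libraries. With so few reads the difference remains uncertain.

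Summed over genes, receptors and regulators together outweighed amidases in every library. The 7 receptor and regulator genes summed to 117, 116 and 125 TPM in KO replicates 1 to 3, against 153, 147 and 147 TPM in WT replicates 1 to 3. PGRP-LE alone made up 70.7% ± 2.57 of that sum in KO and 69.2% ± 0.935 in WT (SD, n = 3 each), and with PGRP-SA the share was 91.2% in KO and 93.0% in WT. The 2 amidase genes summed to 19.3, 30.8 and 32.8 TPM in KO, against 1.46, 2.99 and 3.01 TPM in WT, nearly all of it PGRP-LB. Amidases thus made up 14.1%, 21.0% and 20.8% of the summed TPM of the 9 genes in KO replicates 1 to 3, against 0.945%, 1.99% and 2.01% in WT replicates 1 to 3. The groups did not overlap in either sum, and the sums are given without a test because the genes were a chosen list. The total of the 9 genes was 147 ± 10.4 TPM in KO and 152 ± 2.53 TPM in WT. Fewer cells making a transcript and less transcript per cell cannot be told apart in such bulk libraries.

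**Figure D3:**
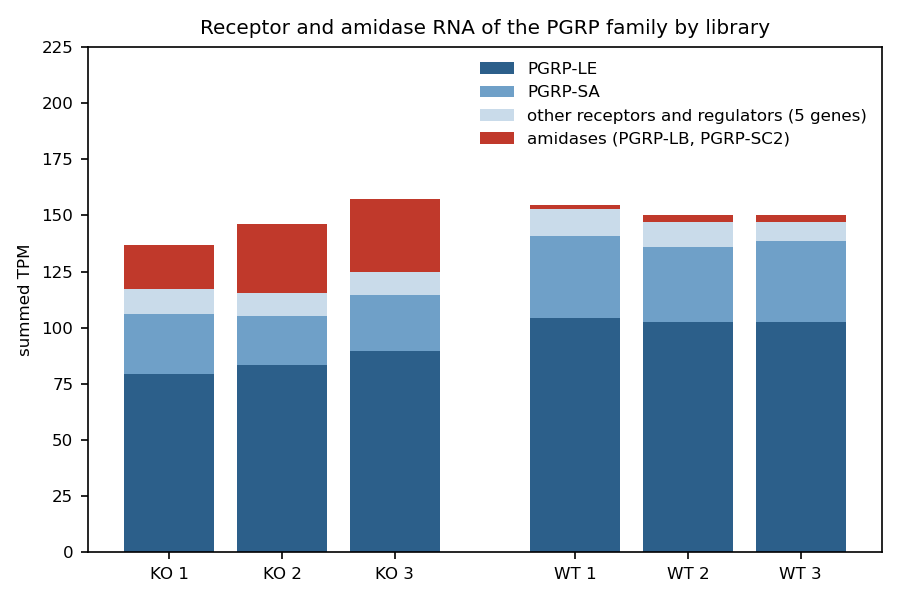
Summed TPM (vertical axis) of PGRP-LE, PGRP-SA, the 5 other receptor and regulator genes and the 2 amidase genes in each library, KO left and WT right. The amidase part reaches 19.3 to 32.8 TPM in KO and 1.46 to 3.01 TPM in WT.

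The order of levels, which compares genes per length by TPM, differed most clearly in the place of PGRP-LB. In KO the order was PGRP-LE (84.2 ± 5.24 TPM), PGRP-LB (27.4 ± 7.46), PGRP-SA (24.5 ± 2.34), PGRP-LF (4.57 ± 0.597), PGRP-LD (3.87 ± 1.20), PGRP-SD (1.27 ± 0.152), PGRP-LC (0.600 ± 0.231), PGRP-SC2 (0.280 ± 0.165) and PGRP-LA (0.143 ± 0.150). The ranges of PGRP-LB and PGRP-SA overlapped there, as did those of PGRP-LF and PGRP-LD. Among the last 3, the range of PGRP-SC2 overlapped those of PGRP-LC and PGRP-LA, which did not overlap each other. In WT PGRP-LE (103 ± 0.973 TPM), PGRP-SA (35.4 ± 1.69) and PGRP-LF (5.28 ± 0.946) led without overlap. They were followed by PGRP-LD (2.93 ± 1.10), PGRP-LB (2.21 ± 0.898) and PGRP-SD (1.90 ± 0.699), whose ranges overlapped from each to the next. PGRP-SC2 (0.280 ± 0.165), PGRP-LC (0.277 ± 0.0513) and PGRP-LA (0.0633 ± 0.0551) came last in WT, where the ranges of PGRP-SC2 and PGRP-LC overlapped. PGRP-LC and PGRP-SC2 thus stood in opposite order in KO and WT, within overlapping ranges in both. PGRP-LB was thus beside PGRP-SA in KO and beside PGRP-SD in WT. Per library, PGRP-LE exceeded PGRP-LB in TPM 4.22-fold, 2.73-fold and 2.75-fold in KO, against 87.6-fold, 40.4-fold and 35.6-fold in WT.

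The transcript mix of the called genes was compared through the deposited length, which is the mean transcript length weighted by isoform abundance. Of the 3 called PGRP genes, 0 were called in length by limma, also at an unadjusted p under 0.05, against 2.72% of 4002 genes. PGRP-LB has 6 transcripts of 925 to 1255 bases, and its weighted length was 1233, 1251 and 1244 bases in KO, against 1211, 1255 and 1058 bases in WT (adjusted p = 0.672). The spread in WT comes with only 15 to 36 reads. PGRP-LE has transcripts of 1398 and 2073 bases, and the longer one made up 0.375%, 0.988% and 0.849% in KO, against 0.376%, 0.212% and 0 in WT (adjusted p = 0.337). PGRP-SA has transcripts of 726 and 1018 bases, and the longer one made up 16.8%, 15.6% and 23.1% in KO, against 18.1%, 21.0% and 8.79% in WT (adjusted p = 0.863). The shorter transcript thus prevailed for both receptors in every library.

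The neighbourhood of PGRP-LB was higher in KO too, but by far less. Of the 5 nearest tested genes on each side, 9 of 10 were called higher by edgeR, and all 10 log2 fold changes were above 0, between 0.22 and 1.04. The nearest, CG17230, which overlaps the span of PGRP-LB, was the 1 not called (0.22, edgeR adjusted p = 0.144). By midpoints, the 5 genes on 1 side lay 102 to 121 kb away. The 96 tested genes of its 1 Mb segment had a median log2 fold change of 0.44. When the segment median was used as an offset, PGRP-LB still gave 3.34 on the log2 scale (edgeR adjusted p = 0.000238). PGRP-SA lay among genes that were lower: 6 of its 10 neighbours were called lower, and the median of its segment was -0.17. Under the offset PGRP-SA gave -0.32 (adjusted p = 0.0449). For PGRP-LE the segment median was -0.08, and the log2 fold change with the offset was -0.19 (adjusted p = 0.0215). The part of these regional differences in the PGRP values was not tested beyond that offset.

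**Figure D4:**
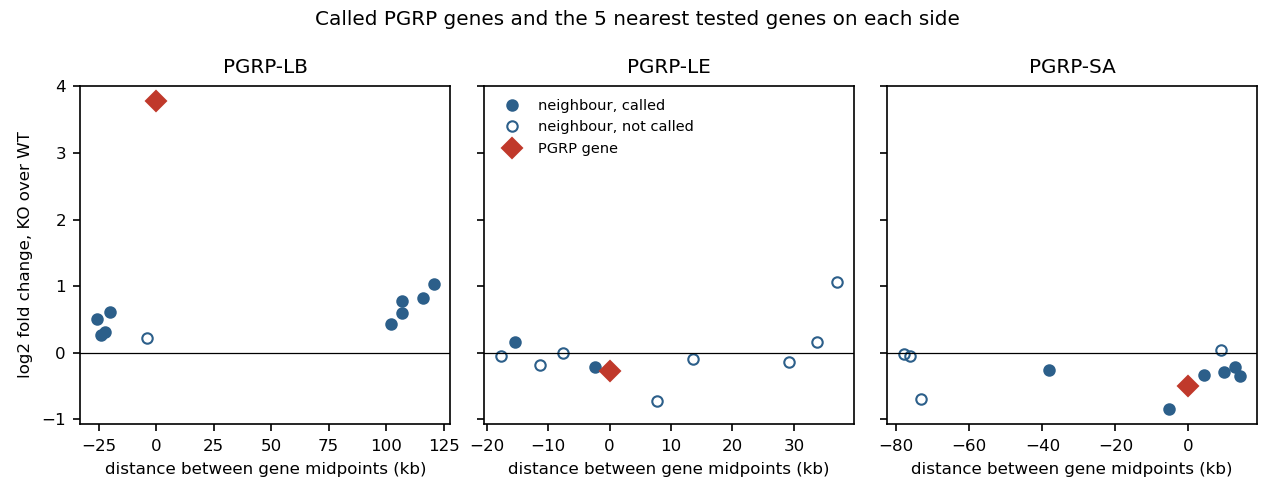
Log2 fold change, KO over WT (vertical axis), of PGRP-LB, PGRP-LE and PGRP-SA (red) and of the 5 nearest tested genes on each side (blue, filled where called), by distance between gene midpoints in kb. Neighbours of PGRP-LB reach at most 1.04, against 3.78 for PGRP-LB itself.

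Downstream of the receptors, the calls among Imd pathway genes were close to the background. Of its 12 core genes, 3 were called higher and 4 lower, beside 27.7% higher and 26.5% lower over all genes tested, with a median log2 fold change of -0.08, against a median of 0.01 over all genes tested. Under the segment offset 4 were called, 3 of them lower. The offset lowered the calls over all genes as well, from 2324 to 1931 higher and from 2227 to 1768 lower. Without both number-1 libraries 10 core genes were called, 6 of them lower. Calls over all genes rose there too, to 2902 higher and 2899 lower. Dredd, the caspase that cleaves Imd and Relish, fell most, to 21.5 ± 1.53 CPM in KO, against 49.5 ± 1.12 CPM in WT (log2 fold change -1.21, edgeR adjusted p = 3.69e-05). The kinase gene Tak1 and its partner Tab2 fell by 0.54 and 0.51 on the log2 scale, while the ubiquitin-conjugating enzyme gene eff and the kinase gene IKKbeta rose by 0.66 and 0.38. The rise of IKKbeta was lost under the segment offset, and the differences of Dredd, Tab2 and eff were smaller there, at -0.59, -0.27 and 0.32, though still called. Rel, the gene of Relish, had 134, 108 and 109 CPM in KO replicates 1 to 3, against 119, 91.4 and 94.2 CPM in WT replicates 1 to 3. The groups overlapped, with replicate 1 the highest of each, and KO was above WT at each replicate number, though the labels state no pairing. Rel was not called without a block (log2 fold change 0.20, edgeR adjusted p = 0.211). It was called higher with the replicate block (0.20, adjusted p = 0.0130), without both number-1 libraries (0.22, adjusted p = 0.000835) and without WT replicate 1 (0.32, adjusted p = 0.0397). The gene imd averaged 31.5 CPM in KO and 33.7 CPM in WT and was not called (log2 fold change -0.10, adjusted p = 0.353, and 0.09 under the segment offset).

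Of 11 listed regulators of the Imd pathway, 5 fell and 0 rose (edgeR; also 0 rises at an unadjusted p under 0.05 and 0 by DESeq2), with a median log2 fold change of -0.19. The share called lower over all genes tested was 26.5%, and that called higher 27.7%. Under the segment offset 2 were called, both lower, and fewer of all tested genes were called as well (1931 higher and 1768 lower). Without both number-1 libraries 7 were called, all lower, and more of all tested genes were called as well (2902 higher and 2899 lower). With the replicate block 7 were also called, all lower, beside 2586 higher and 2475 lower over all genes. The largest fall was that of dnr1, an inhibitor of Dredd, to 3.61 ± 1.01 CPM in KO, against 17.9 ± 1.86 CPM in WT (log2 fold change -2.30, edgeR adjusted p = 0.000124). The inhibitor casp, the transcription factor gene zfh1, the autophagy gene Atg101 and akirin, a nuclear partner of Relish, fell by 0.14 to 0.42 on the log2 scale. Of these 4, only zfh1 stayed called under the segment offset, where akirin turned to 0.03. The call of akirin was also lost in 7 other alternatives, among them those without KO replicate 1, 2 or 3 and without WT replicate 2 or 3 (adjusted p of 0.0529 to 0.124). pirk, a feedback inhibitor induced by Imd signalling, was low in both groups and was not called. It stood at 1.32 ± 1.03 CPM in KO and 3.25 ± 1.24 CPM in WT (log2 fold change -1.28, adjusted p = 0.0789).

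Antimicrobial peptide genes, the classical output of Imd and Toll signalling, were silent or nearly so in both groups. Of 17 genes, 9 had no count in any library, among them DptA, AttC, Dro and Mtk, and no gene exceeded 4 counts in a library. Together they had 23 counts in KO and 15 in WT. None passed the count filter. Of 8 tested without it 0 were called by edgeR and 0 had an unadjusted p under 0.05. In that fit 15.5% of 13887 genes were called higher and 16.9% lower. DESeq2 also called 0. With at most 4 counts in a library these tests could hardly call a difference, so they do not show that the groups are alike.

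Toll pathway genes included some of the largest differences. Of 15 tested, 8 were higher and 3 lower, with a median log2 fold change of 0.22, beside 27.7% higher and 26.5% lower over all genes tested. The number of rises was 6 by DESeq2 and 5 without the count filter, with WT replicates 2 and 3 summed, or without KO replicate 3, WT replicate 2 or WT replicate 3. In these settings the rises over all genes numbered 1814 to 2155, against 2324 without such a change. The fit without the count filter covered 13887 genes and called 15.5% of them higher. The protease gene modSP, which acts just below PGRP-SA and GNBP1, stood at 68.3 ± 0.848 CPM in KO and 2.01 ± 1.27 CPM in WT (31.9-fold higher, edgeR adjusted p = 2.72e-05). The receptor gene Tl rose to 77.2 ± 4.55 CPM in KO, against 6.36 ± 1.13 CPM in WT (log2 fold change 3.62, adjusted p = 3.35e-06). Pli, a pellino that acts on the Toll signalling complex, rose by 1.08, while dl, an NF-kappaB factor of the pathway, fell by 1.48 on the log2 scale. Dif, the other Toll factor, was not called (log2 fold change -0.10, adjusted p = 0.468), but was called higher under the segment offset (0.38, adjusted p = 0.0225). The recognition genes PGRP-SA and GNBP1 were thus lower and modSP and Tl higher in the same KO libraries.

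**Figure D5:**
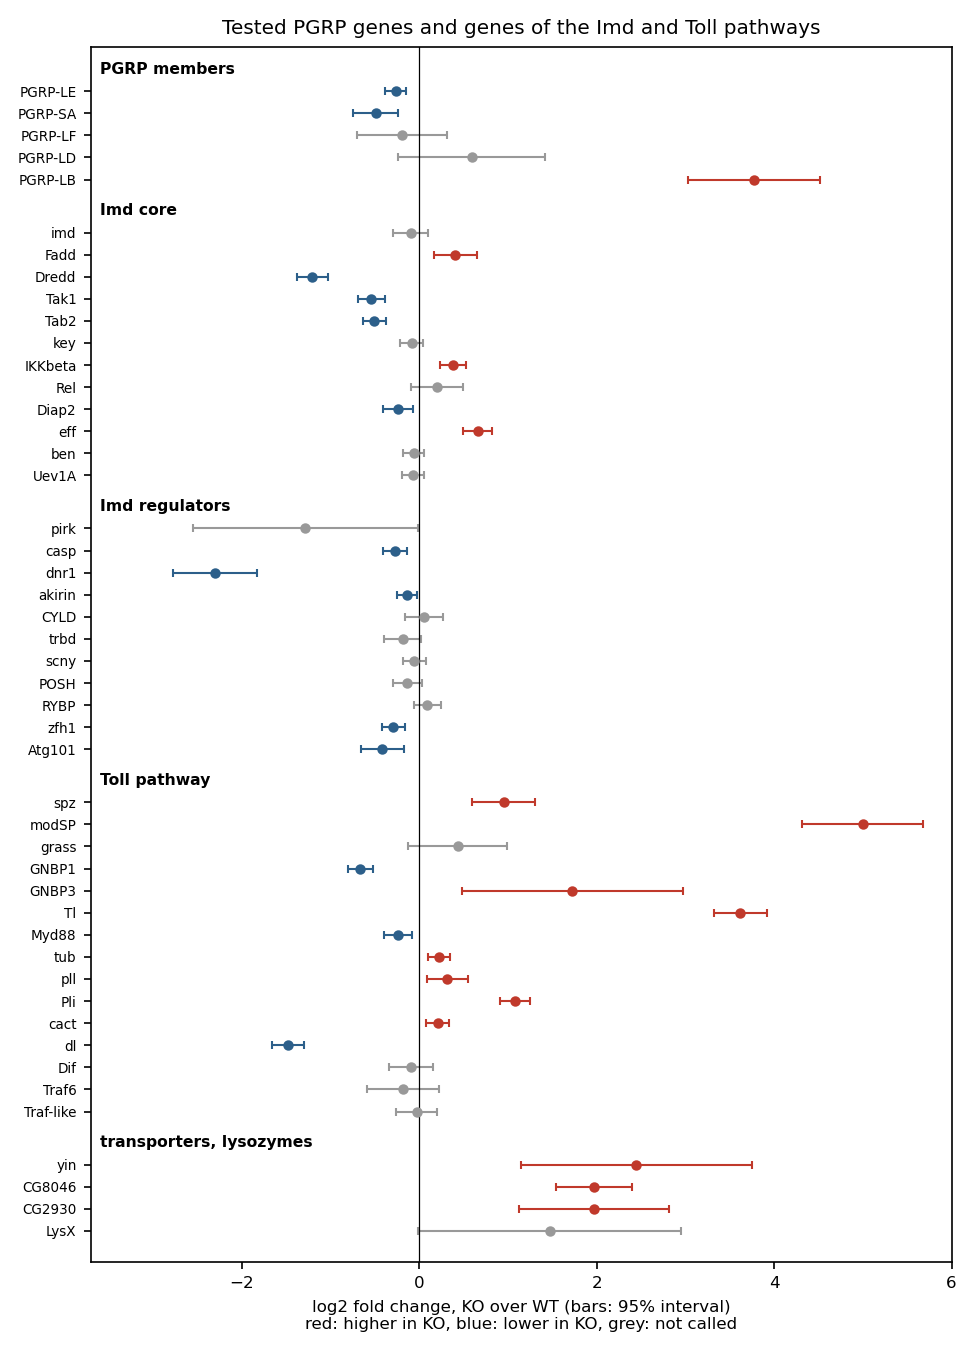
Log2 fold change, KO over WT (horizontal axis, bars 95% intervals), of the tested PGRP genes and of the tested genes on the Imd, Toll and transporter and lysozyme lists. Red and blue mark genes called higher and lower in KO, and grey those not called. modSP lies farthest right, followed by PGRP-LB (3.78) and Tl (3.62), and dnr1 (-2.30) farthest left.

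The list of candidate peptidoglycan transporters and lysozymes gave 3 rises and 0 falls among 4 tested (edgeR; 0 falls also at an unadjusted p under 0.05 and by DESeq2), where 27.7% of all genes tested were called higher. The oligopeptide transporter gene yin stood at 6.48 ± 1.81 CPM in KO and 1.15 ± 1.06 CPM in WT (log2 fold change 2.45, edgeR adjusted p = 0.00821). Without WT replicate 1 it was 3.54, and without both number-1 libraries 3.28. The transporter genes CG8046 and CG2930 each rose by 1.97 on the log2 scale, and CG2930 by 2.60 without WT replicate 1. Lysozyme genes were near 0 in both groups, with 7 of the list's 19 genes at 0 in all libraries and the lysozyme LysX not called (log2 fold change 1.47, adjusted p = 0.0842). With the replicate block all 4 tested genes were called, LysX included, and 0 were lower. The list also gave 4 calls, 0 of them lower, without both number-1 libraries, KO replicate 3, WT replicate 1 or the count filter. In these settings rises over all genes numbered 1906 to 2902.

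The labelled cell type was checked with blood cell markers. Hml, the usual plasmatocyte marker, was high in both groups, at 4494 ± 719 CPM in KO and 4174 ± 700.4 CPM in WT (log2 fold change 0.11, edgeR adjusted p = 0.591). It was called higher without both number-1 libraries (0.09, adjusted p = 0.00812) and lay at -0.13 under the segment offset and at -0.04 without WT replicate 1. Of 10 tested plasmatocyte markers 6 rose and 2 fell, where 27.7% of all genes tested were called higher and 26.5% lower. These background shares stand beside the calls of the other marker lists as well. The list of 11 plasmatocyte markers summed to 1383 to 2186 TPM in KO, against 893 to 1280 TPM in WT. Crystal cell markers gave 1 rise of 2 tested (3.89 to 4.71 summed TPM in KO, 0.710 to 1 in WT), and lamellocyte markers 2 of 3 (167 to 178 in KO, 122 to 138 in WT). Fat body and midgut, tissues in which PGRP-LB and PGRP-SC2 are at work in the fly, were marked weakly. Of 5 tested fat body markers 2 rose and 1 fell, and 0 midgut markers passed the count filter. Fat body markers summed to 46.8 to 49.0 TPM in KO and 37.5 to 48.6 TPM in WT, of which Lpin made up 43.0 to 44.7 TPM in KO and 31.0 to 38.7 TPM in WT, with Lsp1gamma at 0, and midgut markers to 2.36 to 4.52 TPM in KO and 1.18 to 1.76 TPM in WT, with alphaTry, betaTry, Jon65Aiv and Jon99Ciii at 0. Whether a shift among blood cell states has a part in the PGRP differences was not tested.

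Over the 6 libraries, the genes whose log2 CPM was most like that of PGRP-LB, among 7988 genes with a mean of at least 1 TPM, were gas (Pearson r = 0.9996), the ribosomal protein gene RpS15Aa (0.9993) and 14-3-3epsilon (0.9986). Both groups enter these values, so they mostly reflect the difference between KO and WT. A correlation does not measure the size of that difference. The log2 fold changes of the 3 genes were 3.63, 0.59 and 0.48, against 3.78 for PGRP-LB. The level of gas was 11.9 ± 3.13 CPM in KO and 0.962 ± 0.413 CPM in WT (SD, n = 3 each), with replicate 1 again the lowest of each group.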

How the data were processed

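Poly(A) RNA of 3 KO and 3 WT libraries of Kc cells was sequenced. RSEM 1.3.0, STAR 2.7.0f, cutadapt, CASAVA 1.7 and the build dm6 are named in the submitters' processing notes without roles. Strandedness is not given in the sources used here. The authors deposited, per the file headers, RSEM expected counts, TPM and an abundance-weighted transcript length per gene. From these, expected counts were rounded, genes were kept by edgeR's filter (minimum count 10), and KO was compared with WT by edgeR 4.0.16 (R 4.3.3; TMM factors, quasi-likelihood F-test, threshold of 0.05 on p adjusted by Benjamini-Hochberg over 8405 genes). CPM are counts scaled by library size and these factors. Deposited lengths were compared as log2 values with limma 3.58.1, over genes with a mean of at least 5 TPM. DESeq2 1.42.0, other filters and factors, left-out libraries, a replicate block and the median log2 fold change of each 1 Mb segment as an offset were alternatives. Ratios of low counts carry exact binomial 95% intervals, which cover counting error only. Coordinates and transcripts are Ensembl's for dm6.

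The PGRP genes and the gene lists were chosen with earlier results of these data known. Besides the PGRP genes, up to 5 called genes with the lowest adjusted p were eligible to be named from each list, plus Rel, imd, dl, Dif, Hml and CG14906; pirk and LysX, and the genes that overlap PGRP genes, were named after their values were seen. Same-numbered KO and WT libraries deviated together from their group means (r = 0.52, 0.15 and 0.40 for numbers 1, 2 and 3), which is taken from the data and not from the labels. KO replicate 3 and WT replicate 2 gave a similar r of 0.38, and KO replicate 2 and WT replicate 3 gave 0.16. These values thus do not tell numbers 2 and 3 apart. The fits were tested on simulated data.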

Additional observations from a re-analysis of the deposited data

How the results depend on the processing

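PGRP-LB, PGRP-LE and PGRP-SA kept their direction and their call in all 14 alternatives, with log2 fold changes of 3.34 to 3.98, -0.31 to -0.19 and -0.58 to -0.32 and edgeR or DESeq2 adjusted p of at most 0.000896, 0.0215 and 0.0449. With the replicate block their log2 fold changes were 3.78, -0.27 and -0.49, and it changed no call of a PGRP gene, while Rel was called with it (adjusted p = 0.0130). PGRP-LD was called without WT replicate 2, and its log2 fold change ranged from 0.30 to 0.97 with 1 library left out. PGRP-LF turned to 0.0378 (log2) without both number-1 libraries. With segment medians as an offset, 4 Imd core genes and 2 Imd regulators were called, where calls over all genes also fell, to 1931 higher and 1768 lower. Without both number-1 libraries, 10 Imd core genes and 7 Imd regulators were called, where calls over all genes rose to 2902 higher and 2899 lower. The replicate block gave 8 and 7 such calls, beside 2586 higher and 2475 lower over all genes. With 1 library left out, 7 to 10 Toll pathway genes were called. The 7 were called without WT replicate 3, where 1814 of all tested genes were called higher and 1807 lower. The log2 length ratio of PGRP-SA lay between -0.0059 and 0.028 with 1 library left out and was negative without WT replicate 3. The cause of these changes was not tested. Depth limits PGRP-LA, PGRP-LC, PGRP-SC2 and PGRP-SD, which had at most 19 counts in a library.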
